A study of Pogonatum aloides with 7 samples.

Results

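Small capsules of the moss Pogonatum aloides labelled stage 3 were compared with small capsules labelled stage 1 by RNA sequencing. This pair makes up 2 of the 7 samples of the series, and 6 libraries, including both of the pair, had expression values. All were labelled wild type. Besides stages 3 and 1, there were small capsules of stage 2, middle-sized capsules of stage 4, big capsules of stage 5 and, as the control named by the series, young gametophytes (labelled seedlings), and a pooled sample was not analysed here. Each stage had 1 library, so the difference between stages 3 and 1 has no replicate check, and no p-value is given. The labels do not say what separates stage 3 from stage 1 within the small size class, nor how many capsules went into a library.

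The capsule is the spore-producing organ of the moss sporophyte, the diploid generation, which stays attached to the haploid leafy gametophyte and is fed by it. Inside a growing capsule, spore mother cells pass through meiosis while the surrounding wall, the central column of sterile tissue and the lid differentiate. Pogonatum belongs to the hair-cap mosses, whose capsules develop under a hairy cap of gametophyte tissue.

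Expression was given as RPKM, reads scaled to the length of the unigene and the size of the library. Unigenes are sequences built from overlapping reads where no genome is at hand. Of 74566 unigenes, 41647 were listed in stage 3 and 42752 in stage 1, and 36759 in both. The identifiers carry no gene names, and neither could marker genes for capsule tissue be checked. Unigenes are therefore described by their levels, their lengths and the libraries in which they were listed, and 4 are named. Lengths and read numbers were recovered from the RPKM values, as described with the processing, and the 2 libraries were nearly equally deep, with implied totals of 5747499 reads in stage 3 and 5751812 reads in stage 1. Intervals below cover counting error only.

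Stage 3 or stage 1 reached 1 RPKM for 35123 unigenes. Of these, 4620 (13.2%) were at least 2-fold higher in stage 3 than in stage 1, and 6237 (17.8%) were at least 2-fold lower. Unless otherwise said, the ratio is that of RPKM + 1, which understates the difference of low unigenes. Ratios given with a counting interval are read ratios. The median log2 ratio was 0.00, and the middle 50% of unigenes lay between −0.69 and 0.59. The same comparison with a minimum of 10 RPKM kept 9615 unigenes. Of these, 878 (9.13%) were at least 2-fold higher in stage 3 and 1414 (14.7%) at least 2-fold lower, with a median log2 ratio of 0.07 and quartiles of −0.53 and 0.54. In a whole organ, fewer cells of a type and less RNA per cell cannot be told apart, so a lower level can stand for either.

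Many of the 2-fold differences at low levels rested on few reads. Unigenes with a mean of 1 to 3 RPKM over the pair had a median of 8 reads in both libraries together, and 13.1% of them were higher and 17.2% lower in stage 3. With a mean of 30 to 100 RPKM, where the median was 916 reads, 5.65% were higher and 11.0% lower. When the 95% exact counting interval of the read ratio had to lie wholly beyond 2-fold, 477 unigenes (1.36%) were higher and 1590 (4.53%) lower at the minimum of 1 RPKM. At the minimum of 10 RPKM, 318 (3.31%) were higher and 981 (10.2%) lower. The higher unigenes thus made up 38.3% of those that differed by the ratio, and 24.5% of those that differed by the counting interval.

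The unigenes lower in stage 3 differed by far more than those higher in stage 3. At a 4-fold difference in RPKM + 1, 85 of 9615 unigenes (0.884%) were higher and 648 (6.74%) lower. At 8-fold, 9 (0.0936%) were higher and 362 (3.76%) lower. At 16-fold, 1 unigene (0.0104%) was higher and 189 (1.97%) were lower, and at 64-fold 0 (0%) were higher and 26 (0.270%) lower. Of the 1511 unigenes at 100 RPKM or more in stage 3 or stage 1, 3 (0.199%) were 4-fold higher and 91 (6.02%) were 4-fold lower. With the counting interval wholly beyond 16-fold, 1 of the 9615 unigenes at 10 RPKM (0.0104%) was higher and 148 (1.54%) were lower. The 16-fold counts depend on how low values enter: at the minimum of 1 RPKM, a pseudocount of 0.1 gave 1083 higher and 2198 lower, a pseudocount of 5 gave 1 and 31, and unigenes listed in both libraries gave 1 and 87.

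**Figure D1:**
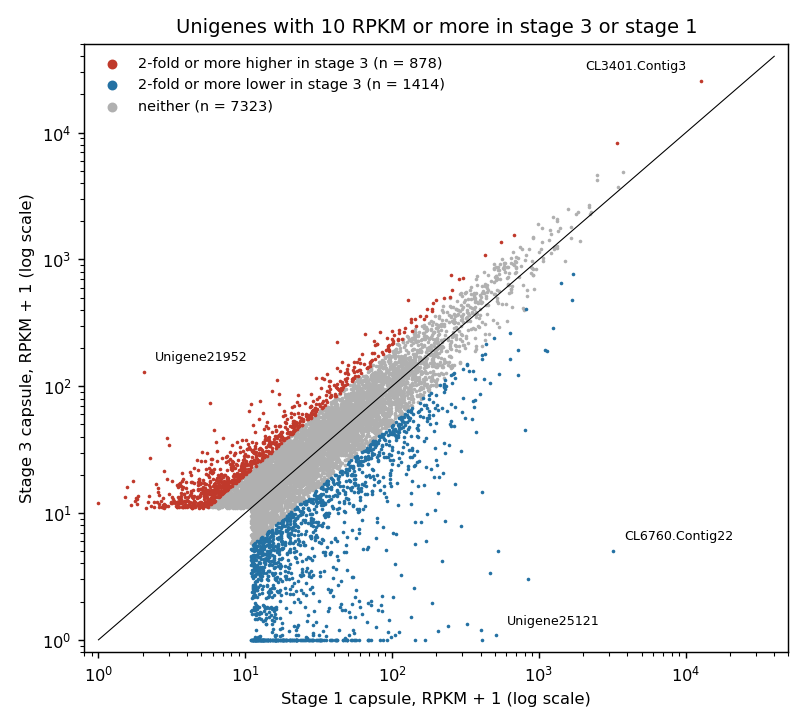
Level of each of the 9615 unigenes at 10 RPKM or more in one of the pair, in stage 3 (vertical axis) against stage 1 (horizontal axis), both as RPKM + 1 on log scales, with the line of equal level. The 878 unigenes higher in stage 3 form a narrow band above the line, while many of the 1414 lower ones lie far below it, down to values of 0 in stage 3.

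**Figure D2:**
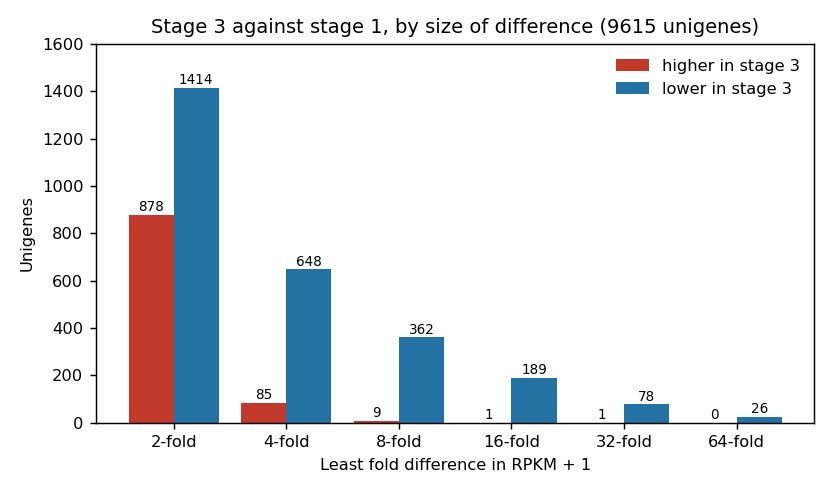
Number of unigenes at least 2-, 4-, 8-, 16-, 32- and 64-fold higher (left bar of each pair) or lower (right bar) in stage 3 than in stage 1, among 9615 unigenes at 10 RPKM or more in one of the pair. Higher unigenes numbered 878 at 2-fold and 1 at 16-fold, and lower unigenes 1414 and 189.

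Which unigenes were listed was lopsided as well. The listing comes from the same 2 libraries and in part from the same unigenes, so it is no separate check. Recovered reads are the smallest whole numbers that fit the RPKM values. Single reads can therefore be overcounted and unigenes with 20 reads undercounted, above all where few libraries list a unigene. Of the 189 unigenes 16-fold lower in stage 3, 87 were listed there. Of 4888 unigenes listed in stage 3 and not in stage 1, 52.9% had a single read, 2 had at least 20 reads and the most abundant had 22 reads and 11 RPKM. Of 5993 unigenes listed in stage 1 and not in stage 3, 42.8% had a single read, 230 had at least 20 reads and the most abundant had 4241 reads and 405 RPKM. That most abundant one, of 1822 bases, was at least 1413-fold lower in stage 3 when 3 reads are taken as the limit that 0 reads allow in the stage 3 library. The 95% exact counting interval, which is the wider limit, begins at 1148-fold. Unigenes well read in stage 3 were nearly always read in stage 1 too. Of the 12287 unigenes with at least 20 reads in stage 3, 0.0163% had no read in stage 1, while of the 12701 such unigenes of stage 1, 1.81% had no read in stage 3. Among the other ordered pairs of capsule libraries, this share ran from 0.245%, for unigenes of stage 2 unread in stage 4, to 15.4%, for unigenes of stage 4 unread in stage 1. Of the 230 unigenes that stage 1 held with 20 reads or more while stage 3 had none, 71 (30.9%) had at least 1 read in stage 2 and 81 (35.2%) had one in stage 4. Stage 5 listed 170 (73.9%) and young gametophytes 59 (25.7%). Of all 12701 unigenes with 20 reads in stage 1, between 89.7% and 92.8% were listed in each of these 4 libraries. Stages 2, 4 and 5 and the gametophyte gave at least 20 reads for 3, 12, 60 (26.1%) and 9 of the 230, against 70.3%, 67.0%, 73.4% and 61.8% of all 12701. The median level of the 230 was 0 RPKM in stages 2 and 4 and the gametophyte and 1.18 RPKM in stage 5.

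Stages 3 and 1 differed less than any other pair of capsule libraries. At 10 RPKM, 23.8% of unigenes differed by 2-fold or more between stages 3 and 1. For stage 4 against stage 2 the share was 32.2%, for stage 5 against stage 2 it was 39.7%, for stage 3 against stage 2 it was 40.6% and for stage 2 against stage 1 it was 51.8%. The remaining pairs of capsules lay above 40.6%. Pairs that share a library are not independent of each other. A 16-fold lopsidedness was not peculiar to this pair, since 1137 unigenes were 16-fold higher and 19 lower in stage 4 than in stage 2. The depths of the libraries were alike in the other small stage (5752394 reads) and lower in stage 4 (5458335 reads). The gametophyte library was the shallowest, with an implied total of 3821669 reads. There 3 reads on 1 kb correspond to 0.785 RPKM, so a limit set in reads is stricter than in the capsules.

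The most abundant transcripts were largely shared by stages 3 and 1. Of the 100 most abundant unigenes of each library, 72 were common to both, and 8 of the 10 most abundant were. The 100 most abundant held 23.5% of the summed RPKM in stage 3 and 19.0% in stage 1. Of the 100 most abundant of stage 3, 7 were 2-fold higher in stage 3 and 1 was 2-fold lower. Of the 100 most abundant of stage 1, 3 were 2-fold higher in stage 3 and 14 were 2-fold lower. Among all 1511 unigenes at 100 RPKM or more in stage 3 or stage 1, 7.41% were higher and 14.4% lower. Each list was ranked by level in a library of the pair, which favours unigenes that are higher in that library.

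The most abundant unigene of stages 3 and 1 was CL3401.Contig3, of 1053 bases. It measured 12653, 17433, 25725, 6496 and 4757 RPKM through capsule stages 1 to 5, with 1.24 RPKM for young gametophytes. Stage 3 thus had the highest level of the 6 libraries, and the gametophyte had 5 reads. It had 155689 reads in stage 3 and 76633 reads in stage 1, a read ratio of 2.03 with a 95% exact counting interval from 2.02 to 2.05. Its log2 ratio of RPKM + 1 was 1.02, and 0.94 when stage 3 was rescaled by the median ratio of abundant unigenes, so that it lies at the edge of 2-fold and its call depends on the scaling. This unigene alone held 3.73% of the summed RPKM in stage 3 and 1.90% in stage 1. The 2 other contigs that share its cluster number summed to 61.7 RPKM in stage 3 and 50.7 RPKM in stage 1, and neither differed by 2-fold.

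The largest upward ratio of RPKM + 1 was that of Unigene21952, of 1495 bases. It measured 1.05, 284, 129.5, 37.9 and 6.54 RPKM through capsule stages 1 to 5, with 293 RPKM for young gametophytes. Stage 1 was the lowest library and the gametophyte the highest, closely followed by stage 2. The unigene had 1113 reads in stage 3 and 9 in stage 1, which made it 124-fold higher by reads, with a 95% exact counting interval from 65.0 to 271. It was the 1 unigene at least 16-fold higher in stage 3, with a log2 ratio of 5.99, whereas the next largest was 3.73.

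The most abundant of the unigenes lower in stage 3 was CL6760.Contig22, of 4680 bases. Its log2 ratio of RPKM + 1 was −9.32, while others with fewer reads in stage 3 had larger read ratios. Its levels in stages 1 to 5 were 3209, 7.99, 4.02, 11.1 and 292 RPKM, and its level in the gametophyte was 1.85 RPKM. The transcript was thus abundant in stage 1, low in stages 2, 3 and 4, and listed at an intermediate level in stage 5. It had 108 reads in stage 3 and 86376 in stage 1, 799-fold lower by reads in stage 3, with a 95% exact counting interval from 662 to 974. The 3 other contigs listed with its cluster number summed to 11.2 RPKM in stage 3 and 8.16 RPKM in stage 1, with 1 of the 3 at least 2-fold higher and 0 lower in stage 3.

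Unigene25121, of 2124 bases, had the largest counting bound among the lower unigenes at 10 RPKM that were listed in both libraries. It measured 510.2, 2.05, 0.0819, 9.40 and 834 RPKM through capsule stages 1 to 5 and was listed at 0 in the gametophyte. Stages 1 and 5 were both high, and the 3 stages between them low. With 1 read in stage 3 and 6233 in stage 1, it was 6228-fold lower by reads in stage 3, with a 95% exact counting interval from 1117 to 246045.

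**Figure D3:**
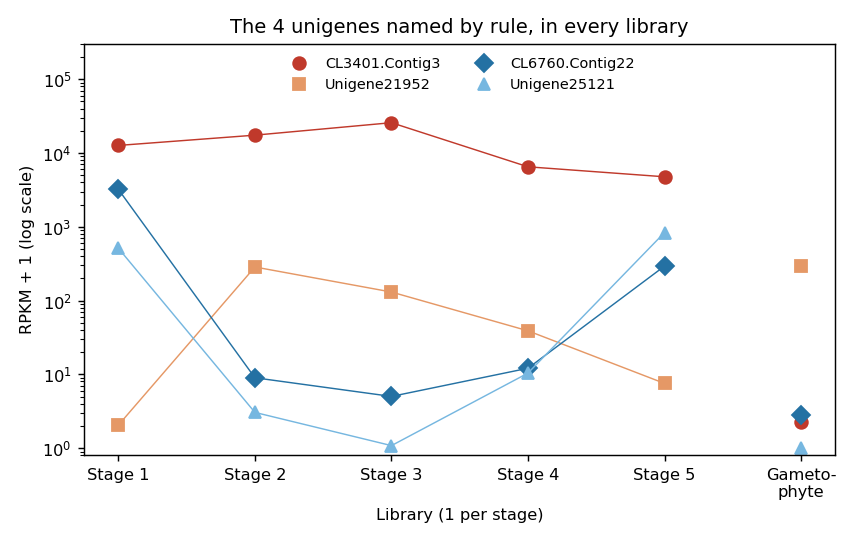
Levels of the 4 named unigenes in the 5 capsule stages (joined by lines) and in the gametophyte, as RPKM + 1 on a log scale, with 1 library per point. CL3401.Contig3 was highest in stage 3, Unigene21952 was lowest in stage 1, and CL6760.Contig22 and Unigene25121 were low in stages 2, 3 and 4. In stage 5 Unigene25121 was above its stage 1 level and CL6760.Contig22 well below it.

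The 20 most abundant unigenes among those higher in stage 3 had values from 340.2 to 25725 RPKM in stage 3 and from 128 to 12653 RPKM in stage 1. None of the 20 was 4-fold higher, and their read ratios ran from 2.03 to 3.75. In 13 of the 20, stage 3 was the highest of all 6 libraries, in 3 it was stage 2 and in 4 the gametophyte. Setting stages 3 and 1 aside, which chose them, stage 2 was the highest of the remaining libraries for 16 of the 20 and the gametophyte for the other 4. Over all 9615 unigenes at 10 RPKM, these shares were 20.3% and 24.6%. The levels of the 20 in the gametophyte were of both extremes, from 0 to 21908 RPKM.

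Some of these 20 were abundant in the gametophyte as well. The second in rank, of 789 bases, measured 3407, 8201, 8287, 2933 and 1434 RPKM through capsule stages 1 to 5, with 21908 RPKM for young gametophytes. Its read ratio of stage 3 to stage 1 was 2.43, with a counting interval from 2.39 to 2.48. The eighth, of 937 bases, measured 284, 515, 706, 143 and 62.4 RPKM through the capsule stages, with 2721 RPKM for young gametophytes. Both had their highest capsule level in stage 3 and their lowest in stage 5.

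The fifth in rank, of 324 bases, had another pattern. It measured 428, 23.1, 1086, 5.65 and 2.15 RPKM through capsule stages 1 to 5, with 2633 RPKM for young gametophytes. It was therefore abundant in stages 1 and 3 and the gametophyte and low in stages 2, 4 and 5. How many unigenes share this pattern was not counted. A stricter class, which leaves this unigene out, is that of unigenes unlisted in stages 2, 4 and 5. At 10 RPKM, 50 of the 878 higher unigenes (5.69%) were in it, a share near the 4.75% of all 9615, and the lower unigenes had 8.77%. The gametophyte listed 28 of the 50, against 294 of the 457 such unigenes among all 9615.

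Others were capsule transcripts with little or no gametophyte signal. The thirteenth, of 1530 bases, measured 197, 168, 474, 7.54 and 27.2 RPKM through capsule stages 1 to 5 and was listed at 0 in the gametophyte. The twelfth, of 577 bases, measured 128, 136, 479, 17.1 and 58.4 RPKM, with 3.63 RPKM for young gametophytes, with a read ratio of 3.75 and a counting interval from 3.36 to 4.18, the largest ratio of the 20. The ninth, of 2420 bases, measured 256, 239, 578, 45.0 and 96.8 RPKM, with 8.22 RPKM for young gametophytes. These 3 were highest in stage 3, similar in stages 1 and 2, and lower in the middle-sized and big capsules.

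A further few were higher in stage 2 than in stage 3. The third in rank, of 2771 bases, measured 670.4, 2671, 1563, 901 and 593 RPKM through capsule stages 1 to 5. The sixteenth, of 940 bases, measured 185, 1233, 407, 261 and 273 RPKM. In both, stage 2 was the highest of the capsule stages and stage 3 the next.

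Among the 85 unigenes at least 4-fold higher in stage 3, the most abundant, of 1483 bases, measured 40.8, 524, 224, 90.9 and 104 RPKM through capsule stages 1 to 5. It had 1906 reads in stage 3 and 348 reads in stage 1, a ratio of 5.48 with a counting interval from 4.89 to 6.16. A unigene of 1525 bases measured 11.6, 11.6, 75.8, 18 and 6.64 RPKM and was listed at 0 in the gametophyte, which made stage 3 the highest library, with a ratio of 6.51 and an interval from 5.28 to 8.11. The 85 had a median of 16.8 RPKM in stage 3 and 2.59 RPKM in stage 1, and so were mostly of low level. Of these, 62.4% were listed in the gametophyte, against 89.7% of all 9615.

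The 20 most abundant unigenes among those lower in stage 3 stood at 0.0819 to 769 RPKM in stage 3 and at 460.2 to 3209 RPKM in stage 1. Of these, 12 were at least 4-fold and 6 at least 16-fold lower. Stage 1 was the highest library for 14 and stage 5 for the other 6. With stages 3 and 1 set aside, stage 5 was the highest of the remaining libraries for 15 of the 20, against 37.8% of all 9615.

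Several of them were high at both ends of the capsule series. The eighth in rank, of 3128 bases, measured 839.7, 2.0, 2.0, 32.4 and 2795 RPKM through capsule stages 1 to 5 and was listed at 0 in the gametophyte. Its 36 reads in stage 3 against 15107 in stage 1 made it 419-fold lower, with a counting interval from 303 to 599. The seventh, of 1164 bases, measured 1098, 85.3, 191, 224 and 1738 RPKM. The sixth, of 2930 bases, measured 1125, 38.0, 189, 12.8 and 499 RPKM, and was 5.95-fold lower in stage 3, with an interval from 5.73 to 6.18. In the eighth and the seventh, stage 5 exceeded stage 1, and in the sixth it did not.

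Others stayed low after stage 1. The nineteenth, of 1322 bases, measured 463, 0.263, 2.37, 3.33 and 35.8 RPKM and was listed at 0 in the gametophyte, a 196-fold lower level in stage 3 by reads, with an interval from 124 to 330.5. The tenth, of 2997 bases, measured 801, 12.5, 44.1, 8.68 and 66.9 RPKM. Both had more than 10-fold more RPKM in stage 1 than in any other library.

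Another kind differed modestly and was expressed throughout the capsule series. The second in rank, of 2529 bases, measured 1716, 869.8, 769, 957 and 1018 RPKM through capsule stages 1 to 5, with 199 RPKM for young gametophytes, 2.23-fold lower in stage 3 with an interval from 2.18 to 2.28. The third, of 1197 bases, measured 1665, 1156, 477, 831 and 1127 RPKM, with 16.6 RPKM for young gametophytes, 3.49-fold lower with an interval from 3.36 to 3.63. Stage 3 was the lowest capsule library for both.

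**Figure D4:**
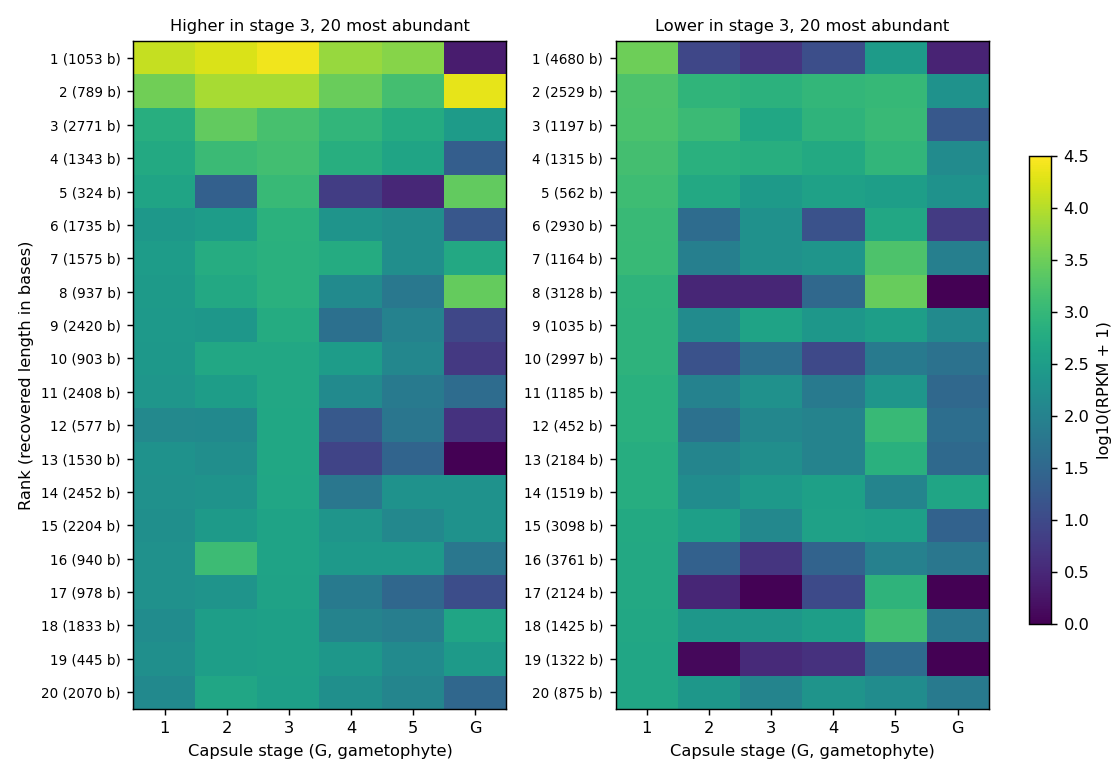
Levels in all 6 libraries, as log10(RPKM + 1), of the 20 most abundant unigenes higher (left) and the 20 most abundant lower (right) in stage 3 than in stage 1, in order of the larger of the 2 values and with their recovered length in bases (b). Higher unigenes differed by a read ratio of at most 3.75, while 6 of the lower ones were at least 16-fold lower and several were high again in stage 5.

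The levels of the 2 groups in the libraries that did not choose them differed between stages 2 and 5. The 878 higher unigenes had medians of 12.9, 6.62 and 6.32 RPKM in stages 2, 4 and 5 and of 5.54 RPKM in young gametophytes. The 1414 lower unigenes had medians of 2.73, 2.54 and 8.96 RPKM in the same 3 stages and of 2.53 RPKM in young gametophytes. Over all 9615 unigenes the medians were 20.6, 18.4, 22.2 and 14.1 RPKM in the same 4 libraries. The higher unigenes thus had their largest median in stage 2 and the lower unigenes theirs in stage 5, and both groups were below all unigenes in each of the 4 libraries.

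Counted by unigene, stage 2 was the highest of these 4 libraries for 444 of the 878 higher unigenes (50.6%) and for 72 of the 1414 lower ones (5.09%), against 20.3% of all 9615. Stage 5 was the highest for 56 of the higher (6.38%) and 876 of the lower unigenes (62.0%), against 37.8% of all. The gametophyte was the highest for 28.2% of the higher and 20.2% of the lower unigenes, against 24.6% of all. Of the 189 unigenes 16-fold lower in stage 3, stage 5 was the highest for 135 (71.4%), and at least 2-fold above the other 3 for 106 (56.1%), against 10.7% of all 9615.

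Set directly against each other, stages 5 and 2, which share no library with the pair of stages 3 and 1, differed in opposite directions in the 2 groups. Of the 1414 unigenes lower in stage 3, 666 (47.1%) were at least 2-fold higher in stage 5 than in stage 2 and 25 (1.77%) were lower. Of the 878 higher in stage 3, 22 (2.51%) were higher in stage 5 than in stage 2 and 394 (44.9%) were lower. Over all 9615 unigenes, 16.1% were higher and 13.0% lower. Across 12205 unigenes with at least 10 RPKM in one of these 4 libraries, the log2 ratio of stage 3 to stage 1 and that of stage 5 to stage 2 had a Spearman rho of −0.52 and a Pearson r of −0.48. For stage 4 to stage 2 the values were −0.19 and −0.05 over 13153 unigenes, and for stage 5 to stage 4 they were −0.31 and −0.27 over 13577. All 3 were computed across unigenes, and unigenes are not independent replicates of a stage; all points of one correlation share the same 4 libraries.

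The comparison of stage 5 with stage 4 showed the lower unigenes in the same way and the higher ones less. Of the unigenes lower in stage 3, 46.7% were higher in stage 5 than in stage 4 and 3.54% lower, against 19.7% and 9.93% of all. Of those higher in stage 3, 88 of 878 were higher in stage 5 than in stage 4 and 151 (17.2%) lower. Between stages 4 and 2, 3.08% of the higher unigenes were higher in stage 4 and 36.8% lower, and of the lower unigenes 10.4% were higher and 9.55% lower, against 4.49% and 11.6% of all.

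**Figure D5:**
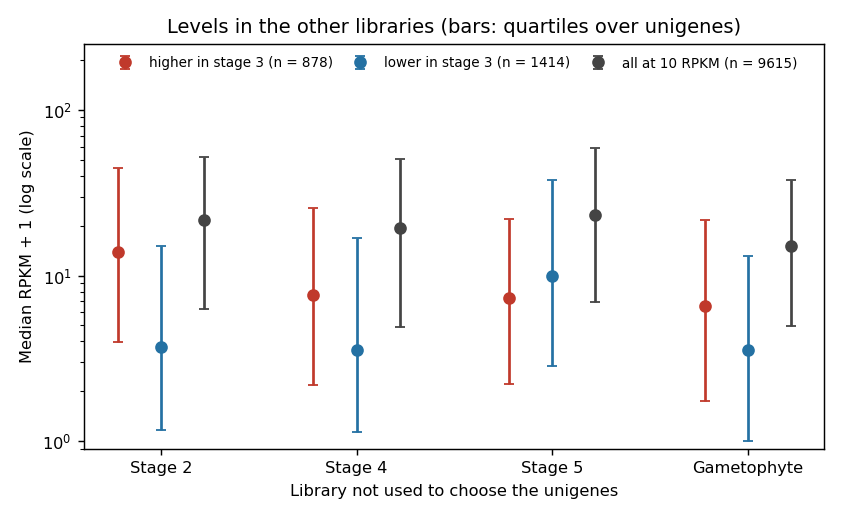
Median level, as RPKM + 1 on a log scale, of the 878 unigenes higher in stage 3, the 1414 lower in stage 3 and all 9615, in the 4 libraries that were not used to choose them. Bars run between the quartiles over unigenes. The higher group has its largest median in stage 2 (12.9 RPKM) and the lower group in stage 5 (8.96 RPKM).

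The level that the lower unigenes had in stage 1 was reached again in stage 5 by a minority. Of the 1414, 247 (17.5%) were at or above their stage 1 level in stage 5, and 549 (38.8%) were within 2-fold of it or above, against 37.8% and 67.7% of all 9615. Of the 217 that had at least 100 RPKM in stage 1, 52 (24.0%) were at or above it, and of the 189 that were 16-fold lower, 18 (9.52%). These shares compare stage 5 with the library for whose high values the unigenes were chosen, so they are given as a description.

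The share of expression held by each group follows, in stages 3 and 1, from how the unigenes were chosen. Of the summed RPKM, the 878 higher unigenes made up 11.9% in stage 3 and 5.24% in stage 1, or 8.48% and 3.40% with CL3401.Contig3 left out of both sums. The 1414 lower unigenes held 3.34% in stage 3 and 13.9% in stage 1. In the remaining libraries the lower group held 3.37%, 4.91% and 10.8% of stages 2, 4 and 5 and 2.26% of the gametophyte library. The higher group held 11.1%, 5.12% and 3.90% of these stages and 6.50% of the gametophyte library.

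Unigenes that differed were shorter than those that did not. The median recovered length was 757 bases for the 878 higher, 810.5 bases for the 1414 lower and 1365 bases for the 7323 that differed by less than 2-fold. Level enters the choice of the groups, and the part of length and read number in the difference was not tested. Fewer of those that differed were listed in every one of the other 4 libraries, at 71.6% of the higher and 57.6% of the lower unigenes against 88.8% of the 7323.

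Contigs with the same cluster number were examined for opposite differences between stages 3 and 1. In 315 clusters, at least 2 contigs reached 10 RPKM in either library. A contig at least 2-fold higher was found without any lower one in 46 of them, the reverse in 67, and both together in 0. Over all 9615 unigenes, 9.13% were higher and 14.7% lower. How many clusters would hold both if their contigs differed independently was not tested, and reads could be split between contigs of a cluster. When RPKM was summed within clusters, 3235 clusters reached 10 RPKM, of which 218 were higher and 414 lower in stage 3. Together these were 19.5% of the sums, against 23.8% of all 9615 unigenes. At 16-fold, 0 of the 3235 sums were higher and 53 lower, against 0.0104% and 1.97% of all 9615 unigenes. The sums leave out unigenes without a cluster number, which the 9615 include. Unigene21952, the 1 unigene 16-fold higher, is among those left out, so the 0 says little. With such unigenes kept beside the sums, 1 was 16-fold higher and 176 were lower at the minimum of 1 RPKM.

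The limits of the 2-fold and 10 RPKM rules pass through dense parts of the data. At 10 RPKM, 188 unigenes had a log2 ratio from 1 to 1.1 and 244 had one from 0.9 to 1. On the lower side, 137 lay within 0.1 beyond the limit and 164 within 0.1 short of it. The larger of the 2 values was between 10 and 12 RPKM for 1025 unigenes and between 8 and 10 RPKM for 1341.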

How the data were processed

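The authors deposited 1 table per library; per the file headers its values are RPKM, and a dash, where no value is listed, was read as 0. Per the labels' protocols, total RNA was extracted with TRIzol and libraries followed standard Illumina protocols. Assembler, aligner, counting rule and the treatment of reads shared by similar contigs are not given in these sources; contigs of one cluster are uncertain where reads could be split between them. Library totals were estimated from the steps between repeated low RPKM values. For each unigene the smallest whole length from 200 to 15000 bases was taken that gives whole reads in every library within 0.9 of the last printed digit, which succeeded for all 74566 unigenes. Recovered reads summed to 99.6% of the implied total in stages 3 and 1 and to 96.1% in the gametophyte library. Lengths sharing a factor with all reads of a unigene can be underestimated, and its reads by the same factor. The calculation was also run on reads simulated from the recovered lengths and totals, and the outcome is not given here. Such data cannot show whether these lengths and totals are those of the real libraries.

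Stage 3 was divided by stage 1 as RPKM + 1, keeping unigenes at 1 RPKM or more in one of the pair, and again at 10 RPKM or more. Counting intervals are 95% exact conditional-binomial intervals of the read ratio. With 1 library a side no test was run. Named were, in each direction, the most abundant unigene at least 2-fold different in its higher stage and the one with the most extreme counting bound among those at 10 RPKM and listed in both libraries; the 20 most abundant a side, some of the named ones among them, were described by rank. No identifier could be paired with a gene, so the gene lists of the design were not applied. The comparison, its rules and the classes described were chosen with earlier results of these data known; the 4-fold to 64-fold classes and the grouping by the other libraries were added after values had been seen. Python 3.11.15, numpy 2.4.6, pandas 2.3.3 and scipy 1.17.1 were used.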

Additional observations from a re-analysis of the deposited data

How the results depend on the processing

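No paired analysis was possible because each stage had 1 library, and no library could be left out for the same reason. With a minimum of 10 RPKM the numbers of unigenes higher and lower by 2-fold were 878 and 1414, against 4620 and 6237 at 1 RPKM; leaving out the minimum left these counts as they were, since a 2-fold ratio of RPKM + 1 needs 1 RPKM. With a pseudocount of 5 they were 639 and 1562, among unigenes listed in both libraries 3004 and 3545, and by the counting interval 477 and 1590. At 10 RPKM the higher count was 507 with a pseudocount of 5 and 318 by the counting interval. The lower count ran from 981 by the counting interval to 1546 after median-ratio rescaling. After that rescaling the higher count was 671, and higher unigenes made up 30.3% of those that differed, against 38.3% without it. The 16-fold lopsidedness depended on the pseudocount at low levels: with 0.1, 1083 unigenes were 16-fold higher and 2198 lower. The 16-fold lower count was 31 with a pseudocount of 5 and 87 among unigenes listed in both libraries, and the higher count was 1 in both. The median log2 ratio was 0.07 at 10 RPKM, −0.06 after median-ratio rescaling and 0.02 without the 100 most abundant unigenes of either library. Of the lower unigenes, 50.9% were 2-fold higher in stage 5 than in stage 2 with a pseudocount of 5 and 54.5% by the counting interval. Of the higher unigenes, 52.3% and 59.7% were 2-fold lower in stage 5 under the same 2 settings. In all 16 alternatives for the 4 named unigenes the direction stayed, and 15 remained beyond 2-fold, the exception being CL3401.Contig3 at 0.94 after median-ratio rescaling. Depth limits the low levels: 3 reads on 1 kb correspond to 0.522 RPKM in stages 3 and 1, and spread between capsules of one stage was not measured.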
